A study of Mus musculus with 12 samples.

Results

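The serpins are a superfamily of proteins named for the serine protease inhibitors among them, and their genes carry the symbol Serpin followed by a clade letter and a number. All such symbols of clades a to i were taken from the count tables, which gave 63 of 23420 listed genes. Of these, the 36 with a mean of at least 10 counts over the 12 libraries are described here. They comprised 17 genes of clade a, 10 of clade b and 9 of the other clades, which run from c to i. The members just inside the limit were Serpinb9d with a mean of 10.4 counts and Serpina9 with 11.1. Just outside it were Serpina3i with 7.83 and Serpinb9c with 7.67. Of the 27 genes left out, 9 had no count in any library.

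An inhibitory serpin presents a flexible reactive centre loop that a protease takes for a substrate. When the protease cuts the loop, the serpin springs into a new shape and traps the enzyme, so each molecule works once. Clade a serpins are mostly secreted by hepatocytes into plasma, where they inhibit proteases or carry hormones. Clade b serpins lack a classical signal peptide, stay largely inside cells and guard them against granule and lysosomal proteases. The other clades hold antithrombin and further regulators of coagulation, fibrinolysis and complement, as well as Serpinh1, which is no inhibitor but the collagen chaperone HSP47.

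RNA came from liver of mice on a C57BL/6 background in 4 groups of 3 libraries. In p62Δhep mice, floxed Sqstm1, the gene of the autophagy adaptor p62, was deleted by Alb-Cre, a Cre recombinase driven from the albumin promoter. The p62F/F mice carried the floxed allele without Cre. Tsc1/p62Δhep mice carried Alb-Cre with floxed alleles of both Tsc1, a brake on the growth kinase mTORC1, and Sqstm1, and Tsc1Δhep mice carried Alb-Cre with floxed Tsc1. Age, diet per animal, and whether a liver piece was tumour were not given. The name of the table that holds Tsc1Δhep carries the word NORMAL after the Tsc1 knockout, which the labels do not explain, so the kind of liver tissue behind the Tsc1Δhep values is uncertain. The labels call the deletions specific to hepatocytes, and whether all other liver cells, bile duct cells included, kept both genes was not tested. Only p62F/F lacked Cre, so in that pair an effect of Cre itself and one of p62 loss cannot be told apart.

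Library totals ran from 15792048 to 33377247 counts. Levels are CPM, the counts-per-million unit, scaled by TMM within each of 2 tables, one for p62Δhep with p62F/F and one for Tsc1/p62Δhep with Tsc1Δhep. Sqstm1 stood at 12.4 to 19.8 CPM in p62Δhep, against 316 to 351 CPM in p62F/F, and at 14.4 to 19.6 CPM in Tsc1/p62Δhep, against 789 to 1210 CPM in Tsc1Δhep. Tsc1 stood at 9.35 to 13.7 CPM in Tsc1/p62Δhep and at 5.39 to 10.9 CPM in Tsc1Δhep, below the 26.0 to 39.7 CPM of the other table. Alb, the hepatocyte product albumin, stood at 14262 CPM or more in every library. Whether each library is from its own animal is not stated in the labels, so p-values reflect only the scatter among these libraries, part of which may be technical. In bulk liver, fewer cells of a type and less RNA per cell cannot be told apart.

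The mouse has a family of α1-antitrypsin genes in place of the single human gene, and Serpina1a to Serpina1e, its 5 members here, were 5 of the 8 clade a members that passed the test between Tsc1/p62Δhep and Tsc1Δhep, where 9.25% of all genes were called higher. Their coding sequences were 96.3% to 98.5% identical in pairs and differed at 86 aligned positions. The 60 coding bases with the most differences held 18 of them, and they encode part of the reactive centre loop. They are shown because this loop is the bait offered to proteases. The sequences are from mouse GENCODE M21 (GRCm38), on chromosome 12, and span coding bases 1101 to 1160 (1170 to 1229 in Serpina1a, whose annotated coding sequence is longer). Capitals mark positions at which the genes differ.
Serpina1a: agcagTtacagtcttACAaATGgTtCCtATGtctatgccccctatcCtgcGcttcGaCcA
Serpina1b: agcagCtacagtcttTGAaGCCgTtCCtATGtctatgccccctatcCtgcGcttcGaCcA
Serpina1c: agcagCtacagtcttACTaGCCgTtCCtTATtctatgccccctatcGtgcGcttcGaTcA
Serpina1d: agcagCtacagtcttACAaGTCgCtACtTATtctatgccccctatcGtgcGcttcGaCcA
Serpina1e: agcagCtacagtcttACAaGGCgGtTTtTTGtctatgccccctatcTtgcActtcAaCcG
Serpina1e differed from the other 4 genes at several of these positions, and it is also the gene whose level differed most between Tsc1/p62Δhep and Tsc1Δhep within the family.

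Because reads from such copies can be shared, the stretches of 75 bases, the read length of the single-end runs, that occur in no other serpin transcript were counted. They made up 75.8% of the Serpina1e transcript, 68.9% of Serpina1b, 65.8% of Serpina1d, 48.2% of Serpina1a and 35.4% of Serpina1c. Of the 36 members, 21 had every stretch unique, and Serpina1a and Serpina1c were the 2 with fewer than 50%. The split of counts among Serpina1a to Serpina1e is therefore uncertain, and their sum is given beside the single genes. The sources used here do not give how the authors treated shared reads.

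RefSeq promoter windows of GRCm38.p6, from 250 bases before to 50 after the gene start, were found for 27 of the 36 members. GTTAAT, the half-site of the hepatocyte factor HNF1, read on both strands, was present in 7 of the 27, in 6 of 11 clade a members, in 1 of 9 clade b members (Serpinb8) and in 7.20% of all 27025 promoters. All 5 Serpina1 promoters held it, but these are 91.7% to 98.4% identical copies and no independent cases. The 120 bases before each annotated start are shown to let the copies be compared, on the minus strand at chr12:103863620-103863739 for Serpina1a, chr12:103738190-103738309 for Serpina1b, chr12:103904951-103905070 for Serpina1c, chr12:103773634-103773753 for Serpina1d, chr12:103956898-103957017 for Serpina1e. Capitals mark the half-site, which began 16 to 78 bases before the annotated start. Bases after the start were found in the GENCODE transcript used here for 16 of the 27 windows. Among the Serpina1 genes this held for Serpina1e alone, so the distances depend on the annotated starts.
Serpina1a: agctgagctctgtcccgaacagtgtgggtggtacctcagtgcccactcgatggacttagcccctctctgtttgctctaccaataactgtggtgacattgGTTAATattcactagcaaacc
Serpina1b: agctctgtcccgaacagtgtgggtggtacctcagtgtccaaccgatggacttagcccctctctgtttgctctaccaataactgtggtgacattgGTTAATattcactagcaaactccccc
Serpina1c: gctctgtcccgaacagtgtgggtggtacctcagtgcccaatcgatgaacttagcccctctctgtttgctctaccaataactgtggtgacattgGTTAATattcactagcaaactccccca
Serpina1d: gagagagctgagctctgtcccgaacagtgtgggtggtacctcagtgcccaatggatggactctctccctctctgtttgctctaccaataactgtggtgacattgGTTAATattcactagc
Serpina1e: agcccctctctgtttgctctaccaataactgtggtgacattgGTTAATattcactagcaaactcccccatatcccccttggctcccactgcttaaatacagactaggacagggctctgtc
TTCNNNGAA, the core of a STAT site, was in 4 of the 27 windows (Serpina11, Serpina3f, Serpina3g and Serpinb6a), against 8.47% of all promoters. TGACNNNGC, the core of the antioxidant response element read by NRF2, was in that of Serpind1 alone, against 12.5% of all promoters. These are matches of letters in a window and say nothing of binding.

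With Tsc1 deleted, the summed level of clade a was higher when p62 was also lost, and that of clade b was lower. A few abundant genes carry the clade a sum: Serpina1a to Serpina1e and Serpina3k supplied 88.8% to 95.3% of it in Tsc1/p62Δhep and 52.2% to 71.8% in Tsc1Δhep. Among single clade a members the directions were mixed, with 12 positive and 4 negative log2 fold changes. Over all 63 serpin genes, members or not, and as CPM of the whole library without TMM scaling, those of clade a made up 26236, 26703 and 17118 CPM in Tsc1/p62Δhep libraries 1 to 3, against 2739, 4935 and 4458 CPM in Tsc1Δhep. Clade b made up 54.2, 55.1 and 44.2 CPM in Tsc1/p62Δhep, against 672, 399 and 413 CPM in Tsc1Δhep. The groups were far apart for both clades. Summed hepatocyte markers stood at 122673 to 155601 CPM in Tsc1/p62Δhep and at 44671 to 86981 CPM in Tsc1Δhep, and their part in these differences was not tested. The other clades made up 4496 to 5199 CPM in Tsc1/p62Δhep and 4070 to 4502 CPM in Tsc1Δhep, with ranges that overlapped slightly. In the p62Δhep livers clade a stood at 22461 to 28164 CPM, against 18227 to 25537 CPM in p62F/F, so the ranges overlapped. Clade b stood at 33.1 to 40.6 CPM in p62Δhep, against 41.1 to 96.5 CPM in p62F/F, ranges that lay side by side without overlap.

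**Figure D1:**
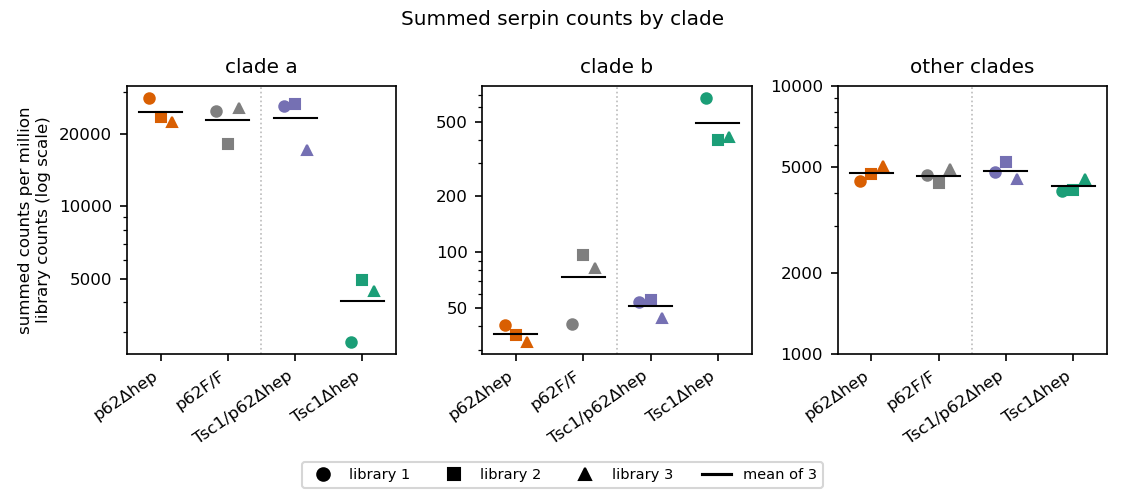
Summed level of all serpin genes of clade a, clade b and the other clades (CPM of the library total without TMM scaling, log axes), for each of the 12 libraries, with the mean of 3 as a bar; the dotted line separates the 2 tables. Clade a in Tsc1Δhep lies at 2739 to 4935 CPM, below every other library, and clade b there at 399 to 672 CPM, above every other library.

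In the quasi-likelihood test of edgeR, with p-values adjusted by Benjamini-Hochberg over all 12620 genes tested, 9 of the 31 members tested were higher in Tsc1/p62Δhep at an adjusted p below 0.05 and 6 were lower. Over all genes 9.25% were called higher and 14.9% lower. In clade a 8 of 16 tested members were higher and 0 lower, with a median log2 fold change of 1.79. Counted in either direction, 14 of the 16 had an unadjusted p below 0.05, against 39.7% of all genes. In clade b 0 of 6 were higher and 5 lower, with a median of -2.78. With so few genes this median was unsteady, and the members tested differed between settings. It was -1.65 over the 5 averaging 50 counts or more and -4.78 over 10 with no filter on low counts. Without Tsc1/p62Δhep library 3 it was -4.20, over the 8 then tested. In the other clades 1 of 9 was higher and 1 lower, with a median of 0.37, and the median over all genes was -0.05. CPM ranges did not overlap for 25 of the 31 members, against 45.7% of all genes. Serpina4-ps1, Serpinb9e and Serpini1 passed the filter on low counts only through the group in which they were high, and so had to differ. Serpina9, Serpinb9b, Serpinb9d, Serpinb9f and Serpinb9g did not pass it.

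**Figure D2:**
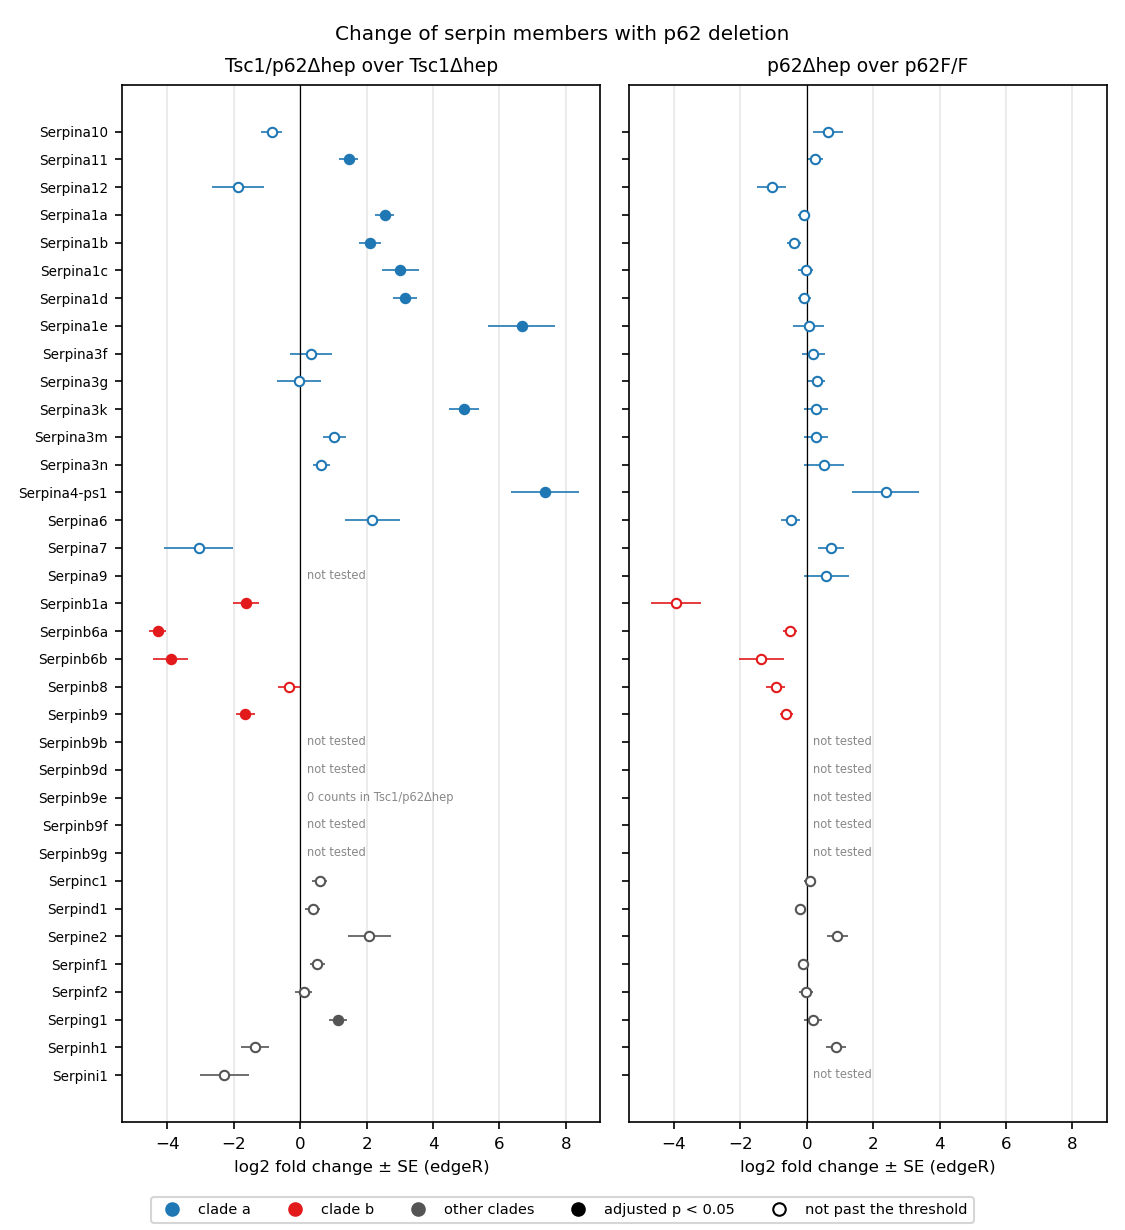
Log2 fold change with its standard error for the members reported here, Tsc1/p62Δhep over Tsc1Δhep on the left and p62Δhep over p62F/F on the right, coloured by clade, filled where the adjusted p was below 0.05. On the left 8 clade a points are filled to the right of 0 and 4 clade b points to the left. Serpina4-ps1, among the 8, passed the filter on low counts only through Tsc1/p62Δhep, and its plotted value is no measure of size. Serpinb9e, with 0 counts in Tsc1/p62Δhep, is written in place of a point, and no point on the right is filled.

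Among the α1-antitrypsin genes, Serpina1e differed most. It had 6475, 7098 and 1092 CPM in Tsc1/p62Δhep, against 13.0, 82.2 and 49.3 CPM in Tsc1Δhep. Even the lowest Tsc1/p62Δhep library was more than 10 times the highest of Tsc1Δhep, and library 3 stood apart from libraries 1 and 2 of its group. The log2 fold change was 6.66 ± 1.01 (SE) with an adjusted p of 0.00489 by edgeR. Serpina1b, the most abundant of the family in Tsc1Δhep, had 4718, 4359 and 4206 CPM in Tsc1/p62Δhep, against 623, 1339 and 1102 CPM in Tsc1Δhep. Its log2 fold change was 2.12 ± 0.33, the smallest of the 5. Serpina1a, Serpina1c and Serpina1d rose by 2.55, 3.02 and 3.15 on the log2 scale, with no overlap between groups for any of them. Summed into 1 feature the 5 genes had a log2 fold change of 3.05 ± 0.40 and an adjusted p of 0.00306.

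The make-up of the family differed as well. Serpina1e supplied 32.8%, 36.5% and 8.18% of the Serpina1a to Serpina1e counts in Tsc1/p62Δhep libraries 1 to 3, against 1.14%, 2.98% and 2.00% in Tsc1Δhep. Serpina1b supplied 22.4% to 31.5% in Tsc1/p62Δhep, against 44.7% to 54.6% in Tsc1Δhep. In the other table Serpina1e varied among libraries of the same group, with 31.3% to 39.6% in p62Δhep and 16.8% to 43.7% in p62F/F. These shares depend on how shared reads were assigned.

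**Figure D3:**
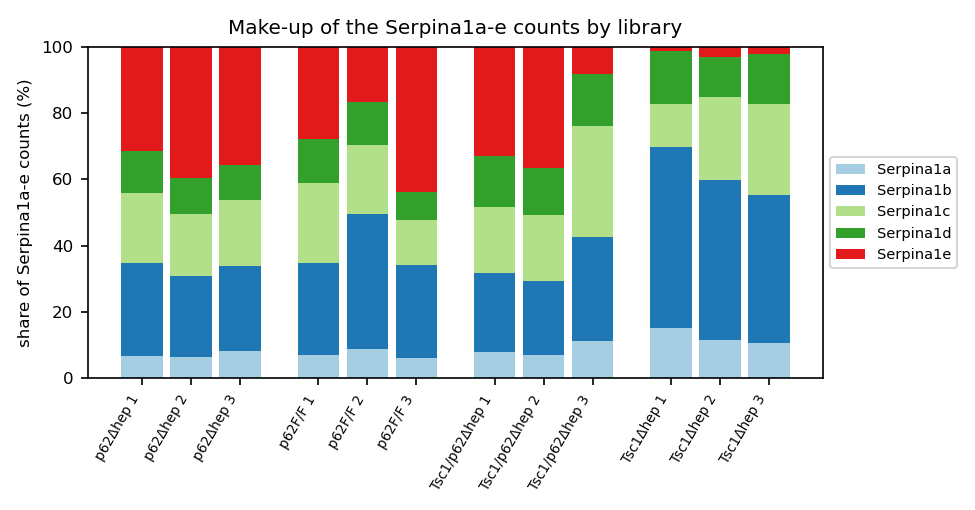
Share of the summed Serpina1a to Serpina1e counts (percent, 1 bar per library) supplied by each gene, in p62Δhep, p62F/F, Tsc1/p62Δhep and Tsc1Δhep. The topmost segment, Serpina1e, is at most 2.98% in the 3 Tsc1Δhep libraries and 8.18% or more elsewhere.

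The Serpina3 genes are mouse relatives of α1-antichymotrypsin, and their members differed from each other. Serpina3k had 8162, 8769 and 4205 CPM in Tsc1/p62Δhep, against 207, 320.1 and 165 CPM in Tsc1Δhep. All 3 Tsc1/p62Δhep libraries were far above all 3 of Tsc1Δhep, with a log2 fold change of 4.93 ± 0.45 and an adjusted p of 0.000949. Serpina3n, a strong acute phase gene in mouse liver, had 660.2, 755 and 1065 CPM in Tsc1/p62Δhep, against 524, 519 and 553 CPM in Tsc1Δhep. Its groups did not overlap either, but the log2 fold change was 0.64 ± 0.25 and the adjusted p 0.103. Serpina3m stood at a log2 fold change of 1.03 ± 0.35 (adjusted p 0.0698). Serpina3f and Serpina3g were below 5 CPM in all 6 libraries of this table and their groups overlapped. Coding sequences of the 5 Serpina3 members were 80.2% to 91.7% identical in pairs, and summed, the Serpina3 genes rose by 3.20 on the log2 scale (SE 0.31, adjusted p 0.00114).

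Per kilobase of coding sequence, a scale that allows for coding length only, Serpina3k was the most abundant member in Tsc1/p62Δhep (5618 ± 1977 CPM per kb, SD, n = 3) and also in p62Δhep and p62F/F. In Tsc1Δhep it ranked 13 among the members, and the highest mean was that of Serpinc1, antithrombin, with 1042 ± 148 CPM per kb, not apart beyond the spread from Serpina1b with 824 ± 294. Per kilobase of annotated transcript, a length chosen after seeing the data, Serpina1b stood at 733 ± 262 and Serpinc1, whose transcript is long, at 293 ± 41.7 CPM per kb in Tsc1Δhep, so this order depends on the length used. On that scale Serpina1e was first in Tsc1/p62Δhep, with 3775 ± 2550 CPM per kb, and Serpina3k next, with 3425 ± 1205. By coding length, Serpina1e ranked 2 in Tsc1/p62Δhep and 19 in Tsc1Δhep. Serpinb6a ranked 21 in Tsc1/p62Δhep and 11 in Tsc1Δhep by coding length. The first ranks by coding length in Tsc1/p62Δhep were not apart beyond their spread, since Serpina1e stood at 3946 ± 2665 and Serpina1b at 3573 ± 212 CPM per kb.

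Outside these families, clade a was mixed. Serpina11 had 51.4, 59.3 and 65.0 CPM in Tsc1/p62Δhep, against 28.2, 21.9 and 13.7 CPM in Tsc1Δhep, with a log2 fold change of 1.46 ± 0.29 (adjusted p 0.0116). Serpina4-ps1, annotated as a transcribed pseudogene and named after kallistatin, had 8.12, 20.4 and 19.2 CPM in Tsc1/p62Δhep, against 0.303, 0 and 0 CPM in Tsc1Δhep. It passed the filter only through Tsc1/p62Δhep and so had to differ, and its fitted log2 fold change of 7.36 ± 1.02 rests on 7 counts in Tsc1Δhep library 1, without which that group is at 0 and the fitted value is no measure of size. Serpina9, at 17 counts over the 3 Tsc1/p62Δhep libraries and 0 in Tsc1Δhep, was at least 10.3-fold higher against a floor of 3 counts over the group. Library 3 of Tsc1/p62Δhep was at 0 too, so the groups overlapped, and without library 1, which held 11 of the counts, the bound was 5.30-fold. This floor covers counting error only.

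The hormone carriers did not pass the threshold and lay in opposite directions. Serpina6, corticosteroid-binding globulin, had 240.2, 365 and 569 CPM in Tsc1/p62Δhep, against 9.49, 115 and 136 CPM in Tsc1Δhep. The groups did not overlap, Tsc1Δhep library 1 was far below the other two, and the adjusted p was 0.0931. Serpina7, thyroxine-binding globulin, had 6.85, 8.19 and 32.8 CPM in Tsc1/p62Δhep, against 279.8, 104 and 15.6 CPM in Tsc1Δhep. Its ranges overlapped through library 3 of each group, with a log2 fold change of -3.06 ± 1.03 and an adjusted p of 0.0663. Serpina10, the protein Z-dependent inhibitor of activated factor X, stood at a log2 fold change of -0.86 ± 0.31 (adjusted p 0.0827). Serpina12, vaspin, which inhibits a kallikrein, had one of -1.87 ± 0.78 (adjusted p 0.116).

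Every clade b member past the threshold was lower in Tsc1/p62Δhep. Serpinb6a, whose human counterpart inhibits cathepsin G, had 10.7, 12.1 and 12.7 CPM in Tsc1/p62Δhep, against 294, 216 and 188 CPM in Tsc1Δhep. The replicates of each group lay close together, and the log2 fold change was -4.29 ± 0.27 with an adjusted p of 0.000451, the 10th smallest p of all genes tested. Serpinb6b had 5.16, 4.26 and 6.69 CPM in Tsc1/p62Δhep, against 133, 75.05 and 32.7 CPM in Tsc1Δhep, a log2 fold change of -3.90 ± 0.53 (adjusted p 0.00323). Serpinb6a and Serpinb6b are 86.2% identical in coding sequence and all their 75-base stretches were unique among serpins. Serpinb9, an inhibitor of the cytotoxic protease granzyme B, had 14.4, 16.5 and 10.5 CPM in Tsc1/p62Δhep, against 54.0, 32.6 and 43.2 CPM in Tsc1Δhep. It fell by 1.65 on the log2 scale (SE 0.28, adjusted p 0.00664).

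Serpinb1a, an inhibitor of neutrophil elastase and related proteases, had 20.3, 17.5 and 15.2 CPM in Tsc1/p62Δhep, against 81.5, 26.5 and 56.7 CPM in Tsc1Δhep. It fell by 1.63 on the log2 scale (SE 0.39, adjusted p 0.0231), and the call was lost without any single Tsc1/p62Δhep library (adjusted p up to 0.0900). Serpinb8 was the clade b member tested that did not pass, with 5.78 to 10.9 CPM in Tsc1/p62Δhep and 8.07 to 13.6 CPM in Tsc1Δhep and overlapping groups.

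The lettered Serpinb9 genes, a mouse expansion lying near Serpinb9 on chromosome 13, were hardly detected outside Tsc1Δhep. Serpinb9e had 0 counts in each library of Tsc1/p62Δhep, against 19.97, 0.731 and 3.57 CPM in Tsc1Δhep libraries 1 to 3, and 0 in the other table. It was at least 104-fold lower in Tsc1/p62Δhep against the floor of 3 counts over the group, and at least 26.4-fold lower without Tsc1Δhep library 1. Its call was also lost without any single Tsc1/p62Δhep library (adjusted p up to 0.0767). Serpinb9d, Serpinb9e and Serpinb9g had all of their 125, 564 and 262 counts in Tsc1Δhep, and Serpinb9f had 263 of 264. They became members only through that group, so a lower level elsewhere followed from the selection. Serpinb9f, Serpinb9g and Serpinb9d had 0 counts in Tsc1/p62Δhep as well and were at least 48.3-fold, 48.1-fold and 23.0-fold lower there than in Tsc1Δhep. Tsc1Δhep library 1 supplied most of each, with 4.94 CPM or more against less than 1 CPM in libraries 2 and 3, and without it the bounds were 7.95-fold, 2.05-fold and 2.82-fold. Serpinb9b had 0, 0 and 0.130 CPM in Tsc1/p62Δhep, against 5.46, 0.352 and 0.469 CPM in Tsc1Δhep. Its mean of 14.5 counts came mostly from Tsc1Δhep library 1. Thus it too became a member only through that group, and its lower level elsewhere followed from the selection. The non-members Serpinb9c and Serpinb1b, named after their values were seen, had 0 counts in Tsc1/p62Δhep, against 92 and 63 in Tsc1Δhep. Coding identity among the Serpinb9 members was 78.5% to 98.7%. Serpinb9 and Serpinb9b had every 75-base stretch unique, whereas Serpinb9d to Serpinb9g share stretches with one another and cannot be fully separated. Summed by name, the Serpinb9 genes fell by 2.21 on the log2 scale (SE 0.44, adjusted p 0.0118). That sum includes the lettered genes, whose lower level followed from the selection. Without TMM scaling it stood at 115, 37.9 and 60.8 CPM in Tsc1Δhep libraries 1 to 3.

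**Figure D4:**
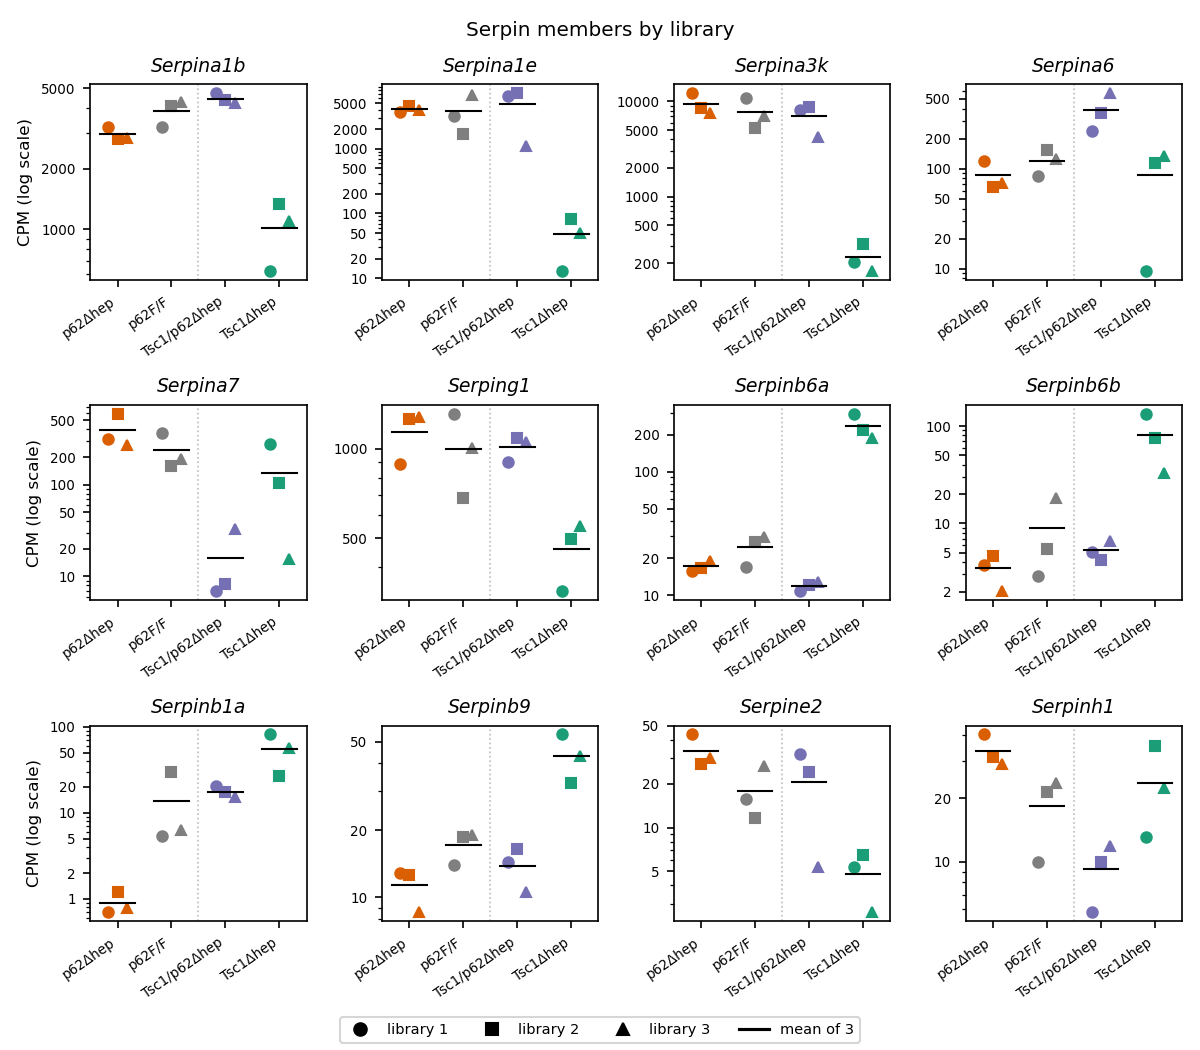
CPM (log axes, a scale for each gene) of 12 members in each of the 12 libraries, with the mean of 3 as a bar; the dotted line separates the 2 tables, each scaled on its own. Serpina1b, Serpina1e and Serpina3k lie lowest in Tsc1Δhep and Serpinb6a lies highest there, at 188 to 294 CPM, whereas Serpina7 spreads over more than 10-fold within Tsc1Δhep.

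Of the other clades, the coagulation inhibitors did not pass the threshold in the edgeR fit of this table. Serpinc1, antithrombin, had 2187, 2273 and 2081 CPM in Tsc1/p62Δhep, against 1691, 1363 and 1308 CPM in Tsc1Δhep, a log2 fold change of 0.58 ± 0.23 (adjusted p 0.0987). The groups did not overlap, and Serpinc1 was called higher by DESeq2 (adjusted p 0.0206), by edgeR with all 12 libraries in 1 model (0.0365) and without Tsc1Δhep library 1 (0.0410). Serpind1, heparin cofactor II, had one of 0.37 ± 0.23 and Serpinf2, the plasmin inhibitor α2-antiplasmin, one of 0.10 ± 0.25. Serpinf1, the secreted antiangiogenic factor PEDF, had one of 0.52 ± 0.21 (adjusted p 0.114). Serping1, the C1 inhibitor of complement and the contact system, had 904, 1084 and 1054 CPM in Tsc1/p62Δhep, against 332, 499 and 549 CPM in Tsc1Δhep. It rose by 1.14 on the log2 scale (SE 0.26, adjusted p 0.0203), a call lost without Tsc1Δhep library 2 or any single Tsc1/p62Δhep library (adjusted p up to 0.0885).

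Serpine2, protease nexin-1, an inhibitor of thrombin and plasminogen activators, had 32.3, 24.1 and 5.32 CPM in Tsc1/p62Δhep, against 5.33, 6.48 and 2.63 CPM in Tsc1Δhep. Library 3 of Tsc1/p62Δhep lay among the Tsc1Δhep values, and the adjusted p was 0.0503. Serpinh1, the collagen chaperone, had 5.79, 9.96 and 11.9 CPM in Tsc1/p62Δhep, against 13.1, 35.5 and 22.4 CPM in Tsc1Δhep (log2 fold change -1.36 ± 0.42, adjusted p 0.0522). Serpini1, neuroserpin, was below 3 CPM in every library (log2 fold change -2.28 ± 0.73, adjusted p 0.0571). DESeq2 called it lower (adjusted p 0.0309), as did edgeR with all 12 libraries in 1 model (0.0402) and without Tsc1Δhep library 3 (0.0194). In the fit of this table it passed the filter on low counts only through Tsc1Δhep.

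With Tsc1 intact, no serpin passed the threshold. Of the 30 members tested, 0 were higher and 0 lower by edgeR in p62Δhep against p62F/F, where 0% of all 12567 genes were called higher and 0.0159% lower. At an unadjusted p below 0.05 there were 8 of the 30, against 8.12% of all genes. DESeq2 called 1 member, Serpinb1a, lower, against 1.10% of all genes. Serpinb1a had 0.705, 1.22 and 0.778 CPM in p62Δhep, against 5.34, 29.5 and 6.39 CPM in p62F/F. All 3 p62Δhep libraries were below all 3 of p62F/F, and the log2 fold change of -3.95 ± 0.75 had an adjusted p of 0.293 by edgeR. All 5 clade b members tested had negative log2 fold changes, with a median of -0.94, against medians of 0.26 for 17 clade a members, 0.14 for 8 of the other clades and 0.00 over all genes. CPM ranges did not overlap for 6 of the 30 members (Serpinb1a, Serpinb8, Serpinb9, Serpind1, Serpine2 and Serpinh1), against 12.8% of all genes. Without p62F/F library 2 the clade a median was 0.03 and that of the other clades, then over 9 members, was -0.03. Without p62Δhep library 2 the clade a median was also 0.03. Without p62F/F library 3 the clade b median was -0.53.

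The members with an unadjusted p below 0.05 were Serpinb1a, Serpinb6a, Serpinb8, Serpinb9, Serpina12, Serpina4-ps1, Serpine2 and Serpinh1. Serpina4-ps1 had 198, 28.2 and 7.53 CPM in p62Δhep, against 17.9, 13.2 and 13.8 CPM in p62F/F. Library 1 of p62Δhep stood far above all others and library 3 was below every p62F/F library. Serpina12, vaspin, had 88.5, 51.7 and 40.9 CPM in p62Δhep, against 56.2, 173 and 146 CPM in p62F/F, with overlapping groups. Serpine2 had 43.7, 27.3 and 30.2 CPM in p62Δhep, against 15.7, 11.6 and 26.4 CPM in p62F/F. The groups nearly touched, and the adjusted p was 0.517. Serpinb6a had 15.9, 16.8 and 19.1 CPM in p62Δhep and 17.1, 27.0 and 29.8 CPM in p62F/F, with overlapping groups. Serpina1e had 3615, 4513 and 3970.2 CPM in p62Δhep and 3216, 1674 and 6679 CPM in p62F/F, so the p62F/F libraries alone spanned more than the difference.

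Whether the p62 effect differed between the Tsc1 backgrounds was tested as the interaction in 1 model of all 12 libraries. Of 32 members tested, 6 were positive and 3 negative at an adjusted p below 0.05, against 6.76% and 9.32% of all 13231 genes. The 6 were Serpina1a to Serpina1e and Serpina3k. Serpinb6a and Serpinh1 were among the 3. Serpinb6a had the smallest p of the members, with a difference of -3.79 ± 0.32 on the log2 scale and an adjusted p of 0.000132. For Serpinh1 the effects had opposite signs, a log2 fold change of -1.36 in Tsc1/p62Δhep over Tsc1Δhep and of 0.87 in p62Δhep over p62F/F. Its levels were 40.3, 31.5 and 29.2 CPM in p62Δhep, against 10.02, 21.4 and 23.6 CPM in p62F/F. Their difference was -2.25 ± 0.56 (adjusted p 0.0203). In the edgeR fits of each table alone neither effect passed, while in this model of all 12 libraries the one with Tsc1 deleted did (adjusted p 0.0195), as it did by DESeq2 (0.0134), in the blocked fit (0.0425) and without Tsc1Δhep library 1 (0.0167). The call of the difference was lost without Tsc1Δhep library 2 (adjusted p 0.0505) or Tsc1/p62Δhep library 1 (0.0553). Serpinb1a, with negative log2 fold changes in both comparisons, had a positive difference of 2.30 ± 0.87 that missed the threshold (adjusted p 0.0885). Serpina7 (-3.78 ± 1.19, adjusted p 0.0504) and Serpina11 (1.20 ± 0.38, adjusted p 0.0534) missed it narrowly. By DESeq2 the difference passed for Serpinb6b (-2.55, adjusted p 0.0189) and Serpinb9 (-1.05, 0.0356), among others. It also passed there for Serpina11 (1.20, 0.0252) and Serpinb1a (2.30, 0.0297). Limma called Serpinb6b as well (-2.62, adjusted p 0.0436).

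Proteases and other partners of serpins were counted from a list. In Tsc1/p62Δhep against Tsc1Δhep, 7 of 25 tested partners were higher and 6 lower, where 9.25% of all genes were called higher and 14.9% lower. St14, the membrane protease matriptase, had 0.848, 0.393 and 0.844 CPM in Tsc1/p62Δhep, against 59.0, 39.1 and 30.7 CPM in Tsc1Δhep (log2 fold change -5.94 ± 0.43, adjusted p 0.000533). Ctss, cathepsin S, fell by 2.51 on the log2 scale and F11, coagulation factor XI, rose by 2.80. Of genes of the hormone axes served by serpins, angiotensinogen (Agt, itself a serpin by descent) included, 6 of 15 were higher and 0 lower. They included the thyroid hormone receptors Thra and Thrb, with log2 fold changes of 1.21 and 0.86, and the angiotensin receptor Agtr1a, with 1.46. Of collagens and collagen-processing genes, which Serpinh1 serves, 1 of 24 was higher and 10 lower, among them Loxl2, Col4a1 and Sparc at -4.26, -3.32 and -2.95. Of hepatocyte factors 7 of 19 were higher and 0 lower, led by Nr1i3, the xenobiotic receptor CAR, at 5.15, with Cebpb at 1.46 and Nr2f2 at 1.47. In the interaction, 4 of 29 partners were positive (F11 and Klkb1, plasma prekallikrein, among them) and 4 negative (Ctss among them), 4 of 15 hormone axis genes were positive (Agtr1a, Thra and Thrb among them), 1 of 24 collagen genes was positive and 8 negative (Loxl2, Col4a1 and Col4a2 among them), and 3 of 19 hepatocyte factors were positive (Nr1i3, Nr2f2 and Ghr), where 6.76% of all genes were positive and 9.32% negative. None of these lists had a member past the threshold in p62Δhep against p62F/F, where 0% of all genes were called higher and 0.0159% lower.

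Acute phase genes, which the cytokine IL-6 induces through STAT3, varied within the groups of the table that holds p62Δhep and p62F/F. The summed CPM of 24 genes of the response and its STAT3 pathway was 51286, 198669.6 and 166004 in p62Δhep libraries 1 to 3 and 179298, 36149 and 82357 in p62F/F. Serpina3n had 717, 2609 and 2187 CPM in p62Δhep and 2187, 542 and 1128 CPM in p62F/F. Serpina3n was highest and lowest in the same libraries as that sum, but p62Δhep library 3 and p62F/F library 1 were level for it. Serpina3m, Serpina10, Serpinc1 and Serping1 shared its 3 highest libraries (p62Δhep 2 and 3 and p62F/F 1), and the other 25 tested members did not. How many of all genes share these libraries was not counted. Against Tsc1Δhep, the Tsc1/p62Δhep livers had 2 of the 24 higher and 5 lower, against 9.25% and 14.9% of all genes, with Lcn2, Il1rn and Orm2 at -5.61, -2.91 and -4.46 on the log2 scale. In the interaction 1 was positive (Il6ra, an interleukin-6 receptor chain) and 2 negative (Lcn2 and Il1rn).

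**Figure D5:**
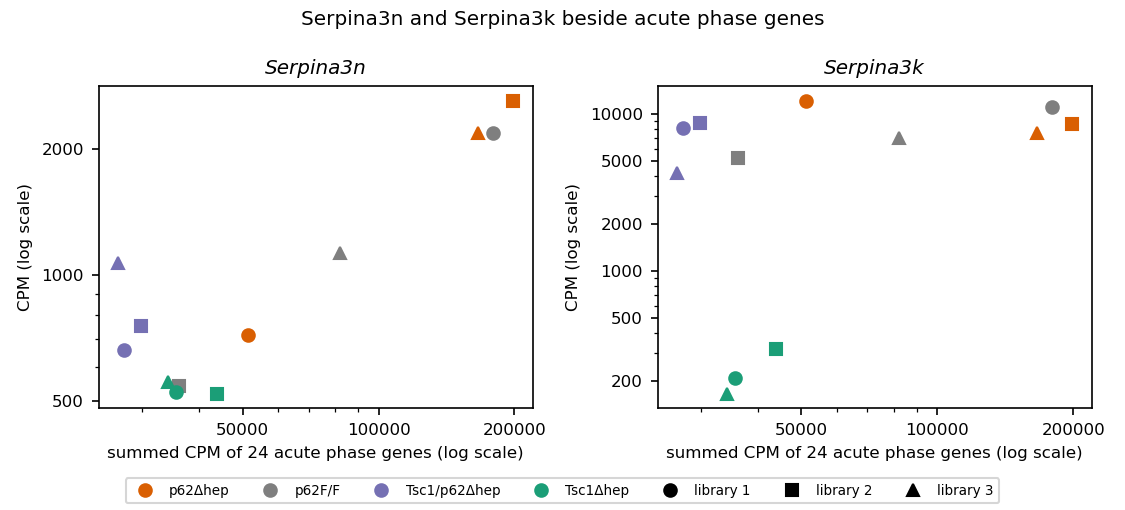
CPM of Serpina3n (left) and Serpina3k (right) against the summed CPM of 24 acute phase genes, log axes, 1 point per library, coloured by group. In the p62Δhep and p62F/F libraries Serpina3n spans 542 to 2609 CPM, lowest and highest in the same libraries as the sum, with 2 libraries level at 2187 CPM, while Serpina3k lies at 165 to 320.1 CPM in Tsc1Δhep and at 4205 CPM or more in all other libraries.

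Markers of hepatocytes and of other liver cells were read beside the serpins. In Tsc1/p62Δhep against Tsc1Δhep, 7 of 13 hepatocyte markers were higher and 0 lower, where 9.25% of all genes were called higher and 14.9% lower, with summed levels of 122673 to 155601 CPM in Tsc1/p62Δhep and 44671 to 86981 CPM in Tsc1Δhep. Of 8 bile duct and progenitor markers 4 were lower, with sums of 86.3 to 136 CPM in Tsc1/p62Δhep and 767 to 5295 CPM in Tsc1Δhep. Of 8 macrophage markers 4 were lower, with sums of 79.6 to 94.0 CPM in Tsc1/p62Δhep and 226 to 374 CPM in Tsc1Δhep. Of 10 stellate cell markers 4 were lower and the sums overlapped, at 236 to 314 CPM in Tsc1/p62Δhep and 60.4 to 326 CPM in Tsc1Δhep. Of 8 endothelial markers 1 was lower, and neutrophil markers summed to 0.983 to 1.36 CPM in Tsc1/p62Δhep and 4.27 to 11.5 CPM in Tsc1Δhep, with Elane, neutrophil elastase, at 0 in Tsc1/p62Δhep. None of the T and NK cell markers was tested, 2 of 3 mesothelial markers tested were higher, and the 1 platelet marker tested did not pass. The sums differed in the direction of clade b for bile duct, macrophage and neutrophil markers and of clade a for hepatocyte markers, and their part in the serpin results was not tested. In Tsc1Δhep library 1, the library highest in Serpinb9e, bile duct and progenitor markers were highest at 5295 CPM, and stellate and endothelial markers were lowest at 60.4 and 45.8 CPM. In p62Δhep against p62F/F no marker passed the threshold. Hepatocyte sums were 77756 to 113412 CPM in p62Δhep and 103615 to 130902 CPM in p62F/F, and bile duct and progenitor sums 76.8 to 478 CPM in p62Δhep and 272 to 487 CPM in p62F/F, both overlapping. Macrophage sums were 329 to 546 CPM in p62Δhep and 281 to 304 CPM in p62F/F, apart and in the direction opposite to clade b.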

How the data were processed

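Poly(A) RNA of 12 libraries had been counted per gene by the authors and deposited as 2 tables of 6 libraries. The values were whole numbers with unequal totals and were taken as raw deposited counts. Neither aligner, counting tool nor use of strand is given in the sources available here. A human build, hg19, is named in the submitters' processing notes although the symbols are mouse ones, so no coordinates were taken from it. Members and gene lists were chosen with earlier results of these data known. Genes were filtered with filterByExpr (at least 10 counts in 3 libraries after scaling, 15 in total), scaled by TMM and tested with edgeR 4.0.16 (R 4.3.3), with Benjamini-Hochberg adjustment over all genes tested. DESeq2 1.42.0 and limma 3.58.1 on log2(CPM + 1) were alternatives. The fits were run on simulated data with the same dispersion for every gene, as a check of the code. That run does not measure error rates or power for these libraries. Replicate pairs differed by a chi-square of 36.2 to 325 per gene, beyond sampling noise, so none was merged. Named were the members past the threshold, the most abundant member of each clade, and for each list the 3 called genes with the smallest p; others were picked after their values were seen. Coding sequences were aligned with MAFFT 7.526. Results of 1 member past the threshold are not reported here; it is included in the counts.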

Additional observations from a re-analysis of the deposited data

Results flagged for a closer look

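The p62 effect of several serpins differed between the Tsc1 backgrounds by the interaction test (edgeR, adjusted p below 0.05 over all genes tested). On the log2 scale, the effect with Tsc1 deleted minus the effect with Tsc1 intact was 6.58 for Serpina1e, 4.64 for Serpina3k, 3.21 for Serpina1d, 3.04 for Serpina1c, 2.63 for Serpina1a and 2.49 for Serpina1b. It was -3.79 for Serpinb6a and -2.25 for Serpinh1. The 5 Serpina1 genes share sequence and are not separate cases, and their sum gave 3.14 with an adjusted p of 0.00286. Only p62F/F had no Cre, so in this difference an effect of Cre cannot be told apart.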

How the results depend on the processing

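No value changed sign under any alternative where it had been called. In p62Δhep against p62F/F, DESeq2 called 1 serpin lower and 0 higher, and the counts stayed at 0 under the other alternatives and in each of the 6 fits that left out a library. In Tsc1/p62Δhep against Tsc1Δhep the 9 higher and 6 lower members became 15 and 11 with DESeq2 and 14 and 10 with all 12 libraries in 1 model. With close paralogs summed, 5 features were higher and 4 lower, because copies are counted once. Leaving out each library in turn gave 8 to 11 higher and 3 to 9 lower, with 3 in the fits without Tsc1/p62Δhep library 1, 2 or 3; 11 of the 15 calls were kept in all 6 fits. Leaving out Tsc1Δhep library 3 and Tsc1/p62Δhep library 1 together, an alternative chosen after seeing the data, gave 9 higher and 5 lower. For the interaction the 6 positive and 3 negative members became 13 and 6 with DESeq2, and with paralogs summed 2 features were positive and 4 negative. Leaving out libraries gave 6 to 9 positive and 1 to 6 negative, with 1 without Tsc1/p62Δhep library 1 and 6 without Tsc1Δhep library 3, and 7 of the 9 calls were kept in all 12 fits. With limma 4 members were lower, and Serpinb9e lost its call. Except where paralogs were summed, the cause was not tested. Another scaling moved the median of all genes by no more than 0.03 on the log2 scale. No pairing by replicate number was seen. Deviations of same-numbered libraries correlated at -0.53 to 0.03 in the table of p62Δhep and p62F/F and at -0.13 to -0.08 in the other. Deviations from a mean of 3 libraries depend on one another, so these correlations cannot exclude pairing. With the replicate number as a block, 11 members were higher and 6 lower in Tsc1/p62Δhep, 6 were positive and 2 negative in the interaction, and 0 were called in p62Δhep. Members of few counts are limited by depth, which bears most on the lettered Serpinb9 genes.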
